A study of Mus musculus with 16 samples.

Results

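The Fos and Jun genes encode the subunits of the transcription factor AP-1. The family is described here by 8 genes, namely Fos, Fosb, Fosl1 and Fosl2 of the Fos branch, Jun, Junb and Jund of the Jun branch, and Atf3, a relative that pairs with Jun proteins. Members were found by the RefSeq transcript that the array design gives for each probe, which led to 10 probes for the 8 genes, among 17178 genes that could be named on the array. Of these probes, 9 gave a signal well above the local background on all 16 arrays and covered 7 genes, and the Fosl1 probe did so on 4 of 16 arrays.

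AP-1 proteins carry a basic region that grips DNA and a leucine zipper through which Fos and Jun proteins form dimers, and Jun proteins can also pair among themselves. Several of the genes are immediate early genes: their transcription starts within minutes of a stimulus, before any new protein is made, and in the hippocampus firing of neurons, seizure, novelty and stress are well known triggers. The cAMP response element that CREB binds and the serum response element that SRF and its ternary complex partners bind are the best known control elements of Fos.

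The study set the senescence-accelerated mouse strain SAM/P-8 against the strain SAM/R-1, which ages normally, both derived from AKR/J stock by selection. All animals were males that were 8 weeks old when feeding began. For 8 weeks they received either plain CE-2 rodent chow, here called the control diet, or the same chow with 0.1% coral calcium hydride (CCH). Total RNA of the hippocampus was labelled with Cy3 and hybridised to 1-colour whole mouse genome arrays, with 4 arrays each for SAM/P-8 control, SAM/P-8 CCH, SAM/R-1 control and SAM/R-1 CCH. The strains differ by selection over their whole genome and not by 1 engineered allele. The labels do not say whether each array stands for 1 animal or a pool, and the p-values then cover only the spread among these samples, which may be technical.

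A level is the log2 of the processed signal of a spot minus the 75th percentile of its array, so a step of 1 is a doubling and 0 is a signal that most probes do not reach. Levels of different probes are not set against each other, since each probe has its own brightness. On each array 28920 to 33333 of 43379 non-control spots were well above background, and arrays of the same group correlated with each other at 0.987 to 0.997. Precision is limited by having 4 arrays in each group. Every slide carried 1 group only, and an effect of the slide cannot be told apart from one of the group. In RNA from whole tissue, fewer cells of a type and less RNA per cell cannot be told apart either. All 9 measured markers of hippocampal neurons were well above background on every array. SAM/P-8 CCH replicate 4 stood apart: its striatum score, the mean of 10 striatal marker genes, each centred on its own 16-array mean, was 3.93 against -0.78 to 0.28 on the other arrays. Values without that array are given for the averaged CCH differences, some correlations with Fos, the Jund call and the dimmer Fosl2 probe. Except where arrays were left out in turn, other values of SAM/P-8 CCH include it.

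The start regions of Fos, Fosb, Fosl2, Junb and Atf3, the members with the largest CCH differences in both strains, are shown because these genes varied together from array to array, and that of Jun because it did not vary with them. Each run is the 150 bases just upstream of the RefSeq transcript start in GRCm38.p6, read 5′ to 3′ on the strand of the gene. Capitals mark TGACG, the core of the cAMP response element, on either strand (CGTCA where it lies on the other strand), and in Jun the element TGACATCA. The Fos stretch lies at chr12:85473740-85473889, plus strand, that of Fosb at chr7:19310046-19310195, minus strand, and that of Fosl2 at chr5:32136322-32136471, plus strand. The Junb stretch lies at chr8:84978749-84978898, minus strand, that of Atf3 at chr1:191183334-191183483, minus strand, and that of Jun at chr4:95052223-95052372, minus strand.
Fos: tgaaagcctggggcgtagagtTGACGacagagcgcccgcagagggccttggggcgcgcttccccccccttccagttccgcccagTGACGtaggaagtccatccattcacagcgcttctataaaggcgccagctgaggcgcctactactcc
Fosb: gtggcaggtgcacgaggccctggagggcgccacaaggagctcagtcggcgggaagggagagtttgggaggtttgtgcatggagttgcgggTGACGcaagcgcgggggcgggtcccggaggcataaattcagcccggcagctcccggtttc
Fosl2: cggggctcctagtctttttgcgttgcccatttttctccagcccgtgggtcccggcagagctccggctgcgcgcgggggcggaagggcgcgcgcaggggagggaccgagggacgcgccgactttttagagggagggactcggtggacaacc
Junb: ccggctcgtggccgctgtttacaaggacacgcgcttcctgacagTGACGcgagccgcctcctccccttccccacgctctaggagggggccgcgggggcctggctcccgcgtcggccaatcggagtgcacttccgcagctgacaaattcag
Atf3: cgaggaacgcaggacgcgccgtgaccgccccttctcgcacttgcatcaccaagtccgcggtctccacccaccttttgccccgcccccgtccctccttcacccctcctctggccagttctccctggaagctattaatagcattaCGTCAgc
Jun: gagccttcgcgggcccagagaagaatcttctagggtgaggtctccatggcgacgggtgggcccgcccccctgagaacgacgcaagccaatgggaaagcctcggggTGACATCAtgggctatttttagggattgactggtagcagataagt
Counting back from the start, TGACG began at -129 and -66 in Fos, at -60 in Fosb and at -106 in Junb, and it lay on the other strand at -7 in Atf3. The search covered both strands and 4 sets of letters: TGACG, the full element TGACGTCA (which holds TGACG), the AP-1 site TGANTCA, and TGACATCA. TGACG was found in 4 of the 7 member promoters in the table and in 13.3% of all 32851 mouse promoters of this length. TGACATCA was found in 1 of 7, at -45 in Jun, against 2.32% of all. TGACGTCA was found in 0 of 7 against 1.36%, and TGANTCA in 0 of 7 against 4.24%. Neither the Fosl2 nor the Jund stretch held any of the letters searched. A match only says that the letters are there.

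**Figure D1:**
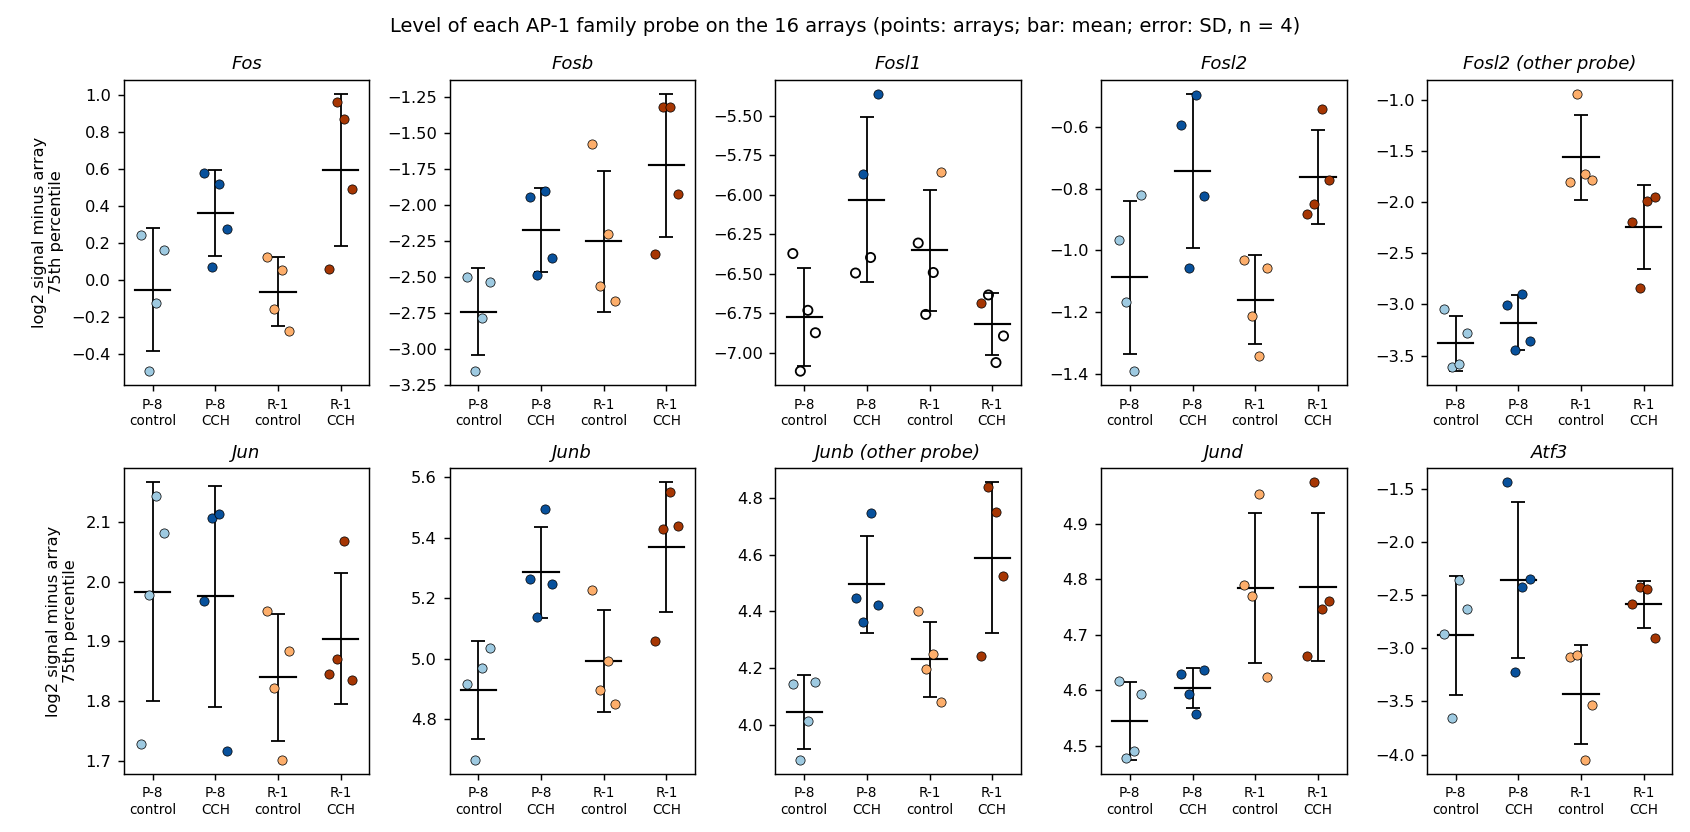
Level of each of the 10 AP-1 family probes on the 16 arrays, as log2 signal minus the 75th percentile of the array, by group. Points are arrays, filled where the spot was well above background, the wide bar is the mean and the error bar the SD over 4 arrays. Fos, Fosb, the brighter Fosl2 probe, both Junb probes and Atf3 have higher means on CCH in both strains, while the diet means of Jun and of Jund lie close together in each strain. The arrays of Fos, like those of Jun and Jund, overlap between the diets in each strain.

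Whether CCH feeding altered the hippocampal transcripts of either strain was the question of the study. Averaged over both strains, Fos, Fosl2 and Junb rose with CCH, by 0.54 ± 0.14, 0.37 ± 0.10 and 0.38 ± 0.08 on the log2 scale (difference ± SE, n = 8 against 8). Fosb and Atf3 had differences as large or larger, 0.55 ± 0.19 and 0.68 ± 0.24, with a wider spread, and did not pass the test. Jun differed by 0.03 ± 0.07 and Jund by 0.03 ± 0.05. So 3 of 7 measured members were past an adjusted p of 0.05 in the upward direction, by limma with Benjamini-Hochberg adjustment over all probes kept, where 1.6% of all 13458 genes tested were and 4.15% passed in either direction. No member fell. The median over the 7 members was 0.38, against -0.02 over all genes, and 7 of 7 were above 0, against 42% of all genes. At an unadjusted p under 0.05, 5 of 7 were higher, against 9.27% of genes.

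Fos encodes the founding subunit of AP-1, a short-lived protein widely used as a marker of recently active neurons. On the SAM/P-8 control arrays, replicates 1 to 4, its level was 0.24, -0.49, -0.12 and 0.16, and on the SAM/P-8 CCH arrays it was 0.58, 0.07, 0.52 and 0.28. On the SAM/R-1 control arrays it was 0.13, -0.16, 0.05 and -0.28, and on the SAM/R-1 CCH arrays 0.06, 0.96, 0.87 and 0.49. In each strain 3 of the 4 CCH arrays lay above every control array, and 1 CCH array, replicate 2 in SAM/P-8 and replicate 1 in SAM/R-1, lay among the controls. The averaged difference was 1.45-fold (95% interval 0.24 to 0.84 on the log2 scale, adjusted p = 0.0477 by limma). Within SAM/P-8 the difference was 0.42 ± 0.20 (adjusted p = 0.273), and within SAM/R-1 it was 0.66 ± 0.20 (adjusted p = 0.242), so neither strain passed on its own.

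Fosb encodes a close relative whose truncated form, ΔFosB, is stable and builds up with repeated stimulation. Its probe read -2.50, -3.16, -2.78 and -2.53 in SAM/P-8 control and -1.94, -2.48, -1.90 and -2.37 in SAM/P-8 CCH. These groups did not overlap, although the nearest arrays, at -2.48 and -2.50, were almost level. In SAM/R-1 control it read -1.58, -2.56, -2.20 and -2.67, and in SAM/R-1 CCH -2.34, -1.32, -1.32 and -1.92. There CCH replicates 2 and 3 lay above all controls, while CCH replicates 1 and 4 lay in the control range and control replicates 1 and 3 in the CCH range. The averaged difference had an adjusted p of 0.105 (95% interval 0.15 to 0.95), with 0.57 ± 0.27 in SAM/P-8 (adjusted p = 0.263) and 0.53 ± 0.27 in SAM/R-1 (adjusted p = 0.499, limma).

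Fosl2 encodes Fra-2, a Fos protein without the strong activation domain of Fos. Its brighter probe read -0.97, -1.17, -1.39 and -0.82 in SAM/P-8 control and -0.59, -1.06, -0.50 and -0.82 in SAM/P-8 CCH. In SAM/R-1 control it read -1.03, -1.21, -1.34 and -1.06, and in SAM/R-1 CCH -0.88, -0.85, -0.54 and -0.77. The SAM/R-1 groups did not overlap, whereas those of SAM/P-8 did. The averaged rise was 1.29-fold (adjusted p = 0.0468, limma), with 0.34 ± 0.14 in SAM/P-8 (adjusted p = 0.196) and 0.40 ± 0.14 in SAM/R-1 (adjusted p = 0.312). A dimmer probe of the same gene did not follow it, with an averaged difference of -0.24 ± 0.16 (adjusted p = 0.390), 0.20 ± 0.23 in SAM/P-8 and -0.68 ± 0.23 in SAM/R-1 (adjusted p = 0.298). In SAM/R-1 all 4 CCH arrays of the dimmer probe lay below all control arrays. The Fosl2 rise therefore rests on 1 of the 2 probes.

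Fosl1, which encodes Fra-1, was at the edge of detection. Its probe was well above background on SAM/P-8 CCH replicates 2 and 4, SAM/R-1 CCH replicate 1 and SAM/R-1 control replicate 4, and on no array of SAM/P-8 control. Its levels ran from -7.12 to -5.36 and it was left out of the limma tests.

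Junb encodes a Jun protein that activates AP-1 sites less strongly than Jun and can hold Jun back. Its brighter probe read 4.92, 4.66, 4.97 and 5.03 in SAM/P-8 control against 5.26, 5.14, 5.50 and 5.25 in SAM/P-8 CCH. It read 5.23, 4.89, 4.99 and 4.85 in SAM/R-1 control against 5.06, 5.43, 5.55 and 5.44 in SAM/R-1 CCH. All SAM/P-8 CCH arrays lay above all SAM/P-8 control arrays, and in SAM/R-1 3 of the 4 CCH arrays lay above all controls. The averaged rise was 1.31-fold (95% interval 0.21 to 0.56 on the log2 scale, adjusted p = 0.0287, limma), with nearly equal parts from SAM/P-8 (0.39 ± 0.12, adjusted p = 0.111) and SAM/R-1 (0.38 ± 0.12, adjusted p = 0.256). The dimmer Junb probe gave 0.40 ± 0.09 (adjusted p = 0.0277), with 0.45 ± 0.12 in SAM/P-8 and 0.36 ± 0.12 in SAM/R-1. Unlike those of Fosl2, the Junb probes moved together: on each array the brighter stood 0.59 to 0.96 above the dimmer.

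Atf3 encodes a stress-induced factor, scarce in unstressed brain, that binds DNA with Jun proteins and often represses. Its probe read -2.86, -3.66, -2.36 and -2.63 in SAM/P-8 control and -1.44, -3.22, -2.42 and -2.35 in SAM/P-8 CCH, which overlapped. It read -3.08, -3.07, -4.05 and -3.53 in SAM/R-1 control and -2.58, -2.43, -2.44 and -2.90 in SAM/R-1 CCH, which did not overlap. The averaged difference was 1.60-fold with an adjusted p of 0.114 (limma). SAM/P-8 gave 0.52 ± 0.34 (adjusted p = 0.426) and SAM/R-1 0.84 ± 0.34 (adjusted p = 0.390), the widest errors in the family.

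Jun encodes the strongest activator among the Jun proteins and Jund a Jun protein that is present in resting cells. Jun lay between 1.70 and 2.14 on all 16 arrays, with group means of 1.98 ± 0.18 (SD, n = 4) in SAM/P-8 control, 1.98 ± 0.19 in SAM/P-8 CCH, 1.84 ± 0.11 in SAM/R-1 control and 1.90 ± 0.11 in SAM/R-1 CCH. The 95% interval of its averaged CCH difference ran from -0.13 to 0.19. Jund gave 4.54 ± 0.07, 4.60 ± 0.04, 4.78 ± 0.13 and 4.79 ± 0.13 in the same order, and its interval ran from -0.08 to 0.14. Both upper bounds lie below the differences measured for Fos, Fosl2 and Junb.

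Within single strains, 0 of 7 members passed the test for CCH in SAM/P-8, where 0.78% of all genes did in either direction, and 0 of 7 in SAM/R-1, where 0.104% did. At an unadjusted p under 0.05, limma had 2 of 7 higher in SAM/P-8 (Fosl2 and Junb, against 6.75% of genes) and 4 of 7 in SAM/R-1 (Fos, Fosl2, Junb and Atf3, against 4.79%). Groups that did not overlap, with CCH higher, were found for 2 of 7 members in SAM/P-8 (Fosb and Junb), against 3.31% of genes, and for 2 of 7 in SAM/R-1 (Fosl2 and Atf3), against 4.28%. Fosl2 is counted in SAM/R-1 by its brighter probe (unadjusted p = 0.0110, limma). Its dimmer probe went the other way there, without overlap and with CCH lower (-0.68, unadjusted p = 0.00958, limma). The CCH differences of the strains share no arrays, and the member medians were 0.39 in SAM/P-8 and 0.40 in SAM/R-1.

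The test of the difference between the strains' CCH effects called 0 of 7 members, against 0.134% of all genes, and 0 of 7 also had an unadjusted p under 0.05, against 4.82% (limma). The interaction, SAM/P-8 minus SAM/R-1, was -0.25 for Fos (95% interval -0.85 to 0.36), 0.04 for Fosb (-0.77 to 0.85) and -0.06 for Fosl2 (-0.47 to 0.36). It was 0.01 for Junb (-0.35 to 0.37) and -0.33 for Atf3 (-1.36 to 0.71). These intervals are as wide as the effects themselves, so the arrays do not show that the strains respond alike.

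**Figure D2:**
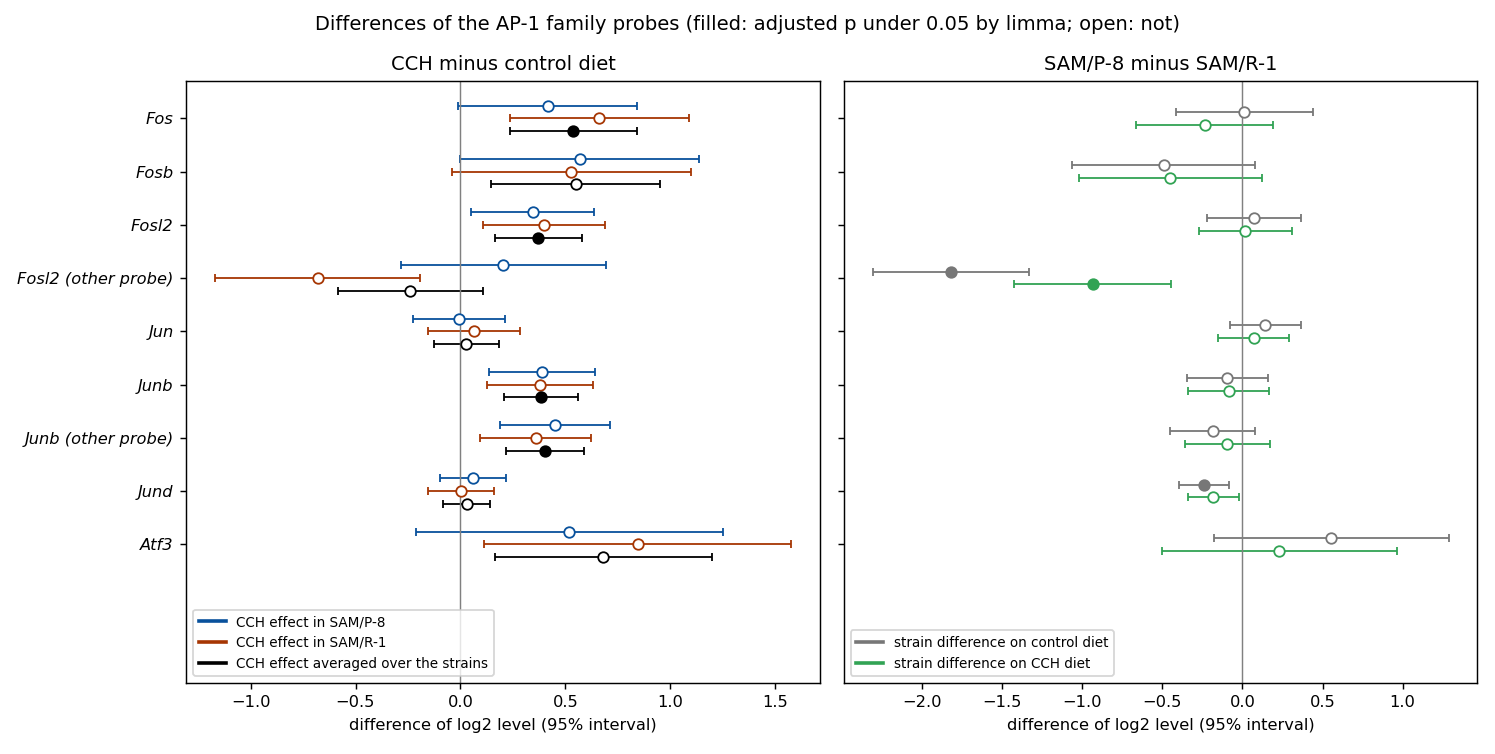
Differences of the 9 tested probes on the log2 scale with 95% intervals, CCH minus control diet on the left and SAM/P-8 minus SAM/R-1 on the right. Filled symbols have an adjusted p under 0.05 by limma: on the left Fos, the brighter Fosl2 probe and both Junb probes in the averaged comparison, on the right Jund on the control diet and the dimmer Fosl2 probe on both diets.

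The calls lie close to the threshold. The Junb call held without each of 8 arrays in turn (SAM/P-8 CCH replicates 2, 3 and 4, SAM/P-8 control replicates 1 and 4, SAM/R-1 CCH replicates 1 and 2, SAM/R-1 control replicate 1) and was lost without each of the other 8, at adjusted p between 0.0524 and 0.0579. The Fos call held only without SAM/P-8 CCH replicate 2, SAM/P-8 control replicates 1 and 4 or SAM/R-1 CCH replicate 1, and was lost without each of the other 12, at adjusted p between 0.0550 and 0.0920. The Fosl2 call held only without the first 3 of these arrays and was lost without each of the other 13 (0.0514 to 0.0906). The sizes moved less: over all single arrays left out, Junb stayed between 0.35 and 0.44, Fos between 0.46 and 0.63 and Fosl2 between 0.32 and 0.42. Atf3 passed when SAM/P-8 CCH replicate 2 was left out, at an adjusted p of 0.0490, and not otherwise. Without SAM/P-8 CCH replicate 4, the array with the striatal signal, Junb was 0.39 (adjusted p = 0.0399), Fos 0.55 (0.0614), Fosl2 0.38 (0.0588), Fosb 0.58 (0.115) and Atf3 0.68 (0.148), all by limma.

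Other scalings of the arrays bear on the same calls. With a normexp background 0 members were called, with an adjusted p of 0.119 for Junb, 0.0779 for Fos and 0.0645 for Fosl2, and with median scaling 0, at 0.0509, 0.0705 and 0.0685 (limma). With quantile normalization Junb kept its call (0.0162), while Fos (0.0525) and Fosl2 (0.0530) lost theirs, and with the probes of a gene averaged Junb kept it (0.0262) while Fos (0.0506) and Fosl2 (0.07 on the log2 scale, 0.756) did not. The direction of Fos, Fosb, Junb and Atf3 was upward in each strain under all 27 settings tried, and Fosl2 turned only in SAM/R-1, to -0.14, when its probes were averaged. Many of these settings cannot change the difference within a strain. Among them are an array of the other strain left out, another error model and a fit of the compared arrays alone.

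Means of marker genes also differed between the diets. All 9 of 9 measured choroid plexus markers had lower means with CCH in each strain, with none past the test and 0 at an unadjusted p under 0.05 (limma). These markers were read on the same arrays, so their count does not stand for separate results. Their score overlapped between the diets in each strain. The choroid plexus score ran from -1.87 to 1.72 in SAM/P-8 control, -2.98 to 1.00 in SAM/P-8 CCH, -1.25 to 1.38 in SAM/R-1 control and -2.74 to 0.92 in SAM/R-1 CCH. A choroid plexus score below -1 was found on 5 arrays: SAM/P-8 CCH replicate 3 (-2.98, Fos level 0.52), SAM/R-1 CCH replicates 2 and 3 (-2.74 and -2.13, Fos 0.96 and 0.87), SAM/P-8 control replicate 4 (-1.87, Fos 0.16) and SAM/R-1 control replicate 4 (-1.25, Fos -0.28). Within its own group, Fos ranked highest and next highest on both SAM/R-1 CCH arrays, next highest on each SAM/P-8 array and lowest on the SAM/R-1 control array. All 4 of 4 measured blood genes were lower with CCH in each strain, 1 of them (Slc4a1, the anion exchanger of red cells) past the averaged test at -1.43 (adjusted p = 0.0453). The blood score ran from -0.17 to 2.54 in SAM/P-8 control, -0.56 to 0.12 in SAM/P-8 CCH, -0.59 to 0.29 in SAM/R-1 control and -1.04 to -0.30 in SAM/R-1 CCH. Of the 9 hippocampal neuron markers, 7 were below 0 in the averaged comparison, with a median of -0.20. At an unadjusted p under 0.05, 5 were lower, against 15% of all genes (limma). The test was passed by 1 (Zbtb20, -0.25 ± 0.06, adjusted p = 0.0395, limma), where 4.15% of all genes passed in either direction. The median of the neuron markers was -0.26 in SAM/P-8, with 8 of 9 below 0, and -0.11 in SAM/R-1, with 6 of 9 below 0. The neuron score ran from -0.01 to 0.22 in SAM/P-8 control, -0.38 to 0.12 in SAM/P-8 CCH, -0.02 to 0.08 in SAM/R-1 control and -0.12 to 0.00 in SAM/R-1 CCH. The lowest, -0.38, was that of SAM/P-8 CCH replicate 4, the array with the striatal signal. SAM/P-8 CCH replicates 1 to 3 scored -0.16, 0.12 and 0.03. Of 9 endothelial and pericyte markers, 7 were above 0 in the averaged comparison, with a median of 0.17 and 1 past the test. Their median was 0.02 in SAM/P-8 and 0.24 in SAM/R-1. In SAM/R-1 their score ran from -0.50 to -0.22 on the control diet and -0.19 to 0.04 on CCH, without overlap. In SAM/P-8 the diets overlapped, at 0.02 to 0.47 and 0.10 to 0.41. The part of all these shifts in the member differences was not tested.

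The members also varied together from array to array. Over the 16 arrays, Fos correlated with Junb at r = 0.903 (rho = 0.888), with Fosb at r = 0.879 (rho = 0.815), with Fosl2 at r = 0.748 (rho = 0.83) and with Atf3 at r = 0.611 (rho = 0.644). In 7 relations, permutation tests with 100000 draws gave p = 1e-05 for Junb, the smallest they can give, 2e-05 for Fosb, 0.00105 for Fosl2 and 0.0123 for Atf3. Adjusted by Benjamini-Hochberg these were 7e-05, 7e-05, 0.00245 and 0.0215, and for rho 0.00014, 0.00049, 0.00049 and 0.0149. Fos and Jund gave r = 0.455 (rho = 0.291, adjusted permutation p = 0.107 and 0.382), Fos and Jun r = 0.05 (rho = 0.04, 0.860 and 0.978), and Fos and Fosl1, mostly below background, r = -0.09 (rho = 0.01, 0.860 and 0.978). Among the 7 relations those with Junb, Fosb, Fosl2 and Atf3 passed, and none of Jun with Fos was detected. The permutations moved arrays across groups, so shifts shared by a group, and so by a slide, enter these p-values.

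The relations did not rest on the arrays with the most Fos. Without SAM/R-1 CCH replicates 2 and 3, the arrays farthest from the median of Fos, r was 0.884 for Junb, 0.775 for Fosb, 0.779 for Fosl2 and 0.639 for Atf3 over 14 arrays, while that of Jund went to 0.175. Within SAM/P-8 (8 arrays) r with Fos was 0.976 for Fosb, 0.862 for Junb, 0.845 for Fosl2 and 0.770 for Atf3, and within SAM/R-1 it was 0.899, 0.938, 0.742 and 0.675. For Jund it was 0.762 in SAM/P-8 and 0.464 in SAM/R-1, and for Jun -0.156 and 0.453. With the mean of each group, and so of each slide, subtracted, r was 0.914 for Fosb, 0.817 for Junb, 0.657 for Jund, 0.533 for Fosl2, 0.477 for Atf3 and 0.02 for Jun. No test was run on these values, and by them Jund followed Fos more closely than Fosl2 and Atf3 did. Without SAM/P-8 CCH replicate 4, r was 0.905 for Junb and 0.886 for Fosb. Fosb thus followed Fos within groups most closely of the members, although its diet difference did not pass.

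**Figure D3:**
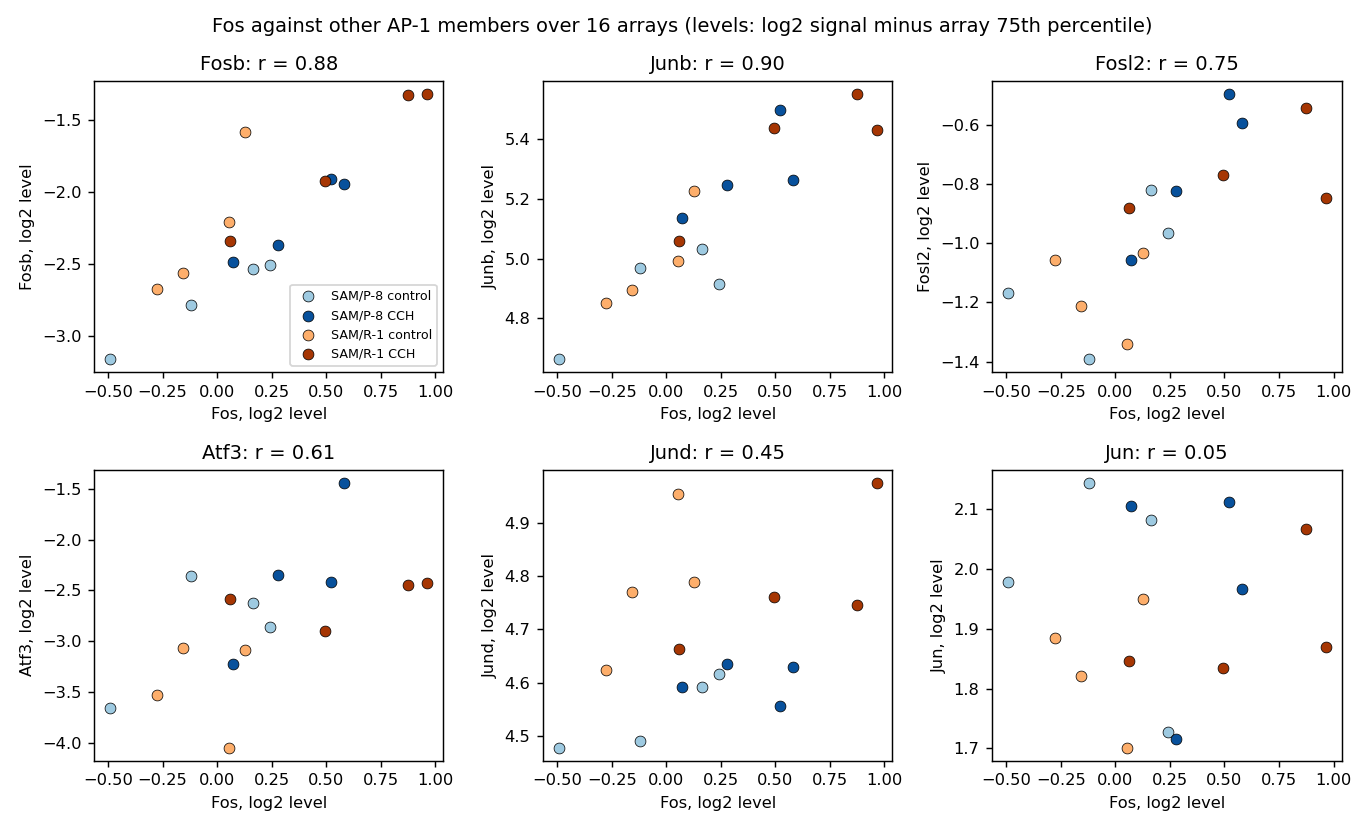
Level of each of 6 members against that of Fos on the 16 arrays, coloured by group, with Pearson's r over all arrays. Fosb and Junb are higher where Fos is higher, Fosl2 and Atf3 are so with more scatter, and Jun shows no relation (r = 0.05).

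Among all 13452 genes ranked outside the family, the 5 whose level followed Fos most closely after the group means were subtracted were Dusp1 (r = 0.920), Per1 (0.897), Prss53 (0.886), Arc (0.864) and Ccn1 (0.858), over 16 arrays. Dusp1 encodes a phosphatase that switches MAP kinases off, Per1 a clock protein, Arc a protein of the synapse and Ccn1 a secreted matrix protein, whereas Prss53 encodes a serine protease. By the same measure 2 genes, Fos itself and Dusp1, stood above Fosb, 15 above Junb, 152 above Jund, 514 above Fosl2 and 771 above Atf3. In the averaged CCH comparison Per1 rose by 0.45 ± 0.08 (adjusted p = 0.0101) and Arc by 0.56 ± 0.13 (adjusted p = 0.0327). Dusp1 differed by 0.38 ± 0.14 (0.126), Prss53 by 0.18 ± 0.07 (0.156) and Ccn1 by 0.49 ± 0.18 (0.128), which did not pass (limma).

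Rapid primary response genes are, like Fos, switched on without new protein. Of 31 such genes outside the family, 6 rose with CCH in the averaged comparison, against 1.6% of all genes, and 0 fell, and 26 had a difference above 0, against 42% of all genes. Their median was 0.26, against 0.38 for the AP-1 members and -0.02 for all genes. The zinc finger factors Egr2 and Egr4 rose by 0.84 ± 0.21 (adjusted p = 0.0402) and 0.57 ± 0.11 (0.0161). Nr4a1, an orphan nuclear receptor, rose by 0.54 ± 0.12 (0.0292, limma). Arc, Per1 and Ier5 were the others. The other 25 did not pass, and 5 of them lay below 0: Ptgs2, which encodes the inducible cyclooxygenase, at -0.27 (adjusted p = 0.243), Klf2 at -0.13, Zfp36 at -0.11, Nfkbiz at -0.09 and Homer1 at -0.03 (0.821). In single strains 0 of 31 passed in SAM/P-8 and 0 of 31 in SAM/R-1.

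**Figure D4:**
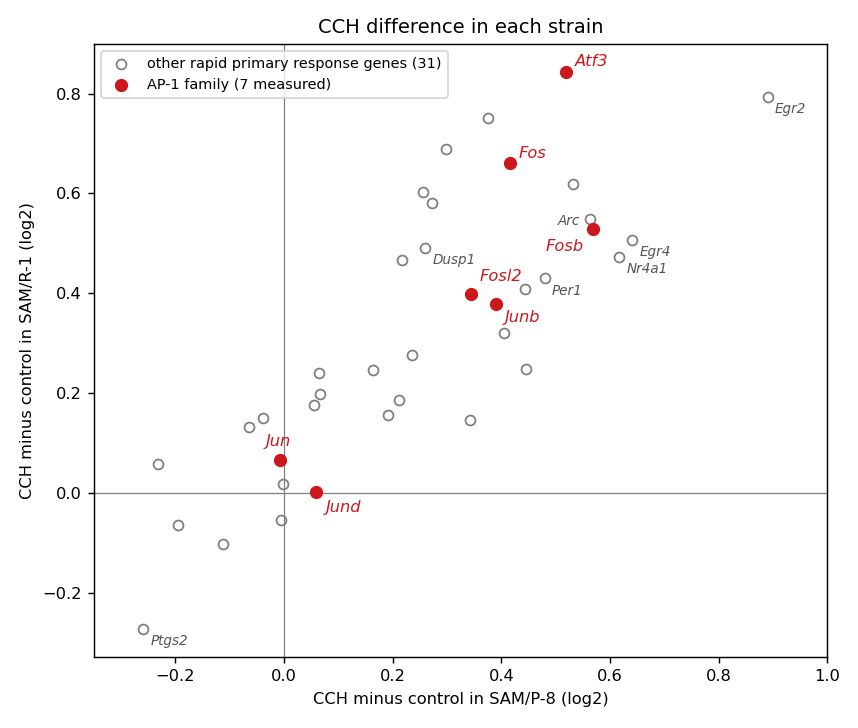
CCH minus control difference in SAM/P-8 (horizontal) and SAM/R-1 (vertical), on the log2 scale, for the 7 measured AP-1 members (filled) and 31 other rapid primary response genes (open). Fos, Fosb, Fosl2, Junb and Atf3 lie above 0 on both axes among genes such as Arc and Egr4, while Jun and Jund lie near 0.

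In the lists of dimer relatives, upstream kinases, cofactors and reported targets, no gene passed the averaged diet test, where 4.15% of all genes did. Of 21 measured bZIP relatives and partners, 0 passed the averaged CCH test. At an unadjusted p under 0.05, 8 were higher, against 9.27% of all genes, and 1 was lower, against 15% (limma). The median difference was 0.10, and 17 of 21 were above 0, against 42% of all genes. The smallest p-values belonged to Maff, a small Maf protein, at 0.84 ± 0.24 (adjusted p = 0.0591) and Creb1, the CREB gene, at 0.14 ± 0.04 (0.0633). Of 22 upstream kinases and SRF factors, 0 passed and the median was -0.04, with Map2k2, a MEK kinase, at -0.11 ± 0.03 (0.0601) and Rps6ka1, an RSK kinase, at -0.11 ± 0.04 (0.102). Of 9 cofactors and turnover factors, 0 passed and the median was -0.04, with the coactivator gene Ncoa1 at -0.13 (0.0984) and Cop1, of a ubiquitin ligase for Jun, at -0.12 (0.119). Counts at an unadjusted p under 0.05 were 1 higher and 6 lower for the kinases and 0 higher and 4 lower for the cofactors, where 9.27% of all genes were higher and 15% lower. Of 17 genes reported as AP-1 targets, 0 passed, with a median of -0.00. At an unadjusted p, 1 was higher and 1 lower, namely the secretogranin gene Scg2 at 0.18 (0.135) and the glutamate receptor gene Gria2 at -0.16 (0.0751, limma).

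On the control diet 1 of 7 members, Jund, passed the test between SAM/P-8 and SAM/R-1, where 12.8% of all genes did. Its signal in SAM/P-8 was 1.18-fold below that in SAM/R-1 (-0.24 ± 0.07, adjusted p = 0.0442, limma). It read 4.62, 4.48, 4.49 and 4.59 in SAM/P-8 control against 4.79, 4.77, 4.95 and 4.62 in SAM/R-1 control. The groups did not overlap, with SAM/P-8 lower, as for 10.2% of all 13458 genes tested. Yet SAM/P-8 control replicate 1 and SAM/R-1 control replicate 4 were nearly level, both at 4.62. On the CCH diet Jund read 4.63, 4.59, 4.56 and 4.64 against 4.66, 4.97, 4.75 and 4.76. These groups did not overlap either, with SAM/P-8 lower, as for 12% of all genes. The difference was -0.18 ± 0.07 (adjusted p = 0.121, limma).

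The Jund call held without SAM/P-8 CCH replicate 4, SAM/P-8 control replicate 1, SAM/R-1 CCH replicate 1 or 2, or SAM/R-1 control replicate 4, and was lost without each of the other 11 arrays, at adjusted p between 0.0535 and 0.140 (limma). It was also lost with a normexp background, quantile or median scaling, no filter on dim probes, and a fit of the compared arrays alone, at adjusted p between 0.0567 and 0.0891 (limma). Its direction was the same under all 27 settings, between -0.29 and -0.18. Many of these cannot change the difference, such as a CCH array left out, another error model or a fit of the compared arrays alone.

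For the other members the strain difference on the control diet did not pass: 0.01 ± 0.20 for Fos, -0.49 ± 0.27 for Fosb (adjusted p = 0.256), 0.07 ± 0.14 for the brighter Fosl2 probe, 0.14 ± 0.10 for Jun, -0.10 ± 0.12 for Junb and 0.55 ± 0.34 for Atf3 (0.323, limma). On the CCH diet 0 of 7 members passed, against 12.6% of all genes, and 1, Jund, had an unadjusted p under 0.05, against 26.4% of genes on the control diet and 27.3% on the CCH diet. There Fos differed by -0.23 ± 0.20, Fosb by -0.45 ± 0.27 and Atf3 by 0.23 ± 0.34. Fosb had the lower mean in SAM/P-8 on both diets and Atf3 the higher, within the spread of the arrays.

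The dimmer Fosl2 probe gave the widest strain gap of any member probe. It read -3.05, -3.61, -3.59 and -3.28 in SAM/P-8 control against -1.80, -0.94, -1.72 and -1.78 in SAM/R-1 control, a 3.53-fold lower signal in SAM/P-8 (-1.82 ± 0.23, adjusted p = 5.69e-05, limma). On the CCH diet it read -3.01, -3.44, -2.89 and -3.36 against -2.19, -2.84, -1.99 and -1.95, a 1.91-fold lower signal (-0.93 ± 0.23, adjusted p = 0.0141). Without SAM/P-8 CCH replicate 4 the difference on the CCH diet was -0.87 ± 0.25 (adjusted p = 0.0396, limma). Neither pair of groups overlapped. The brighter probe of the same gene showed no such gap, at 0.07 ± 0.14 (adjusted p = 0.784) and 0.02 ± 0.14 (0.947). With both probes averaged, Fosl2 was lower in SAM/P-8 on the control diet by -0.87 (adjusted p = 0.00153) and would count as a further member called there.

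The distance between the Fosl2 probes, brighter minus dimmer, was 2.08 to 2.46 on the SAM/P-8 control arrays and 2.39 to 2.54 on the SAM/P-8 CCH arrays, but 1.18 to 1.99 on the SAM/R-1 CCH arrays and -0.27 to 0.77 on the SAM/R-1 control arrays. In SAM/R-1 the distance thus also differed between the diets, without overlap. For Junb the distance stayed between 0.59 and 0.96 in all groups. The interaction of the dimmer Fosl2 probe was 0.88 ± 0.32 with an unadjusted p of 0.0155 and an adjusted p of 0.721 (limma). A strain difference in the sequence under the probe, a different transcript form and a different amount cannot be told apart with these arrays.

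**Figure D5:**
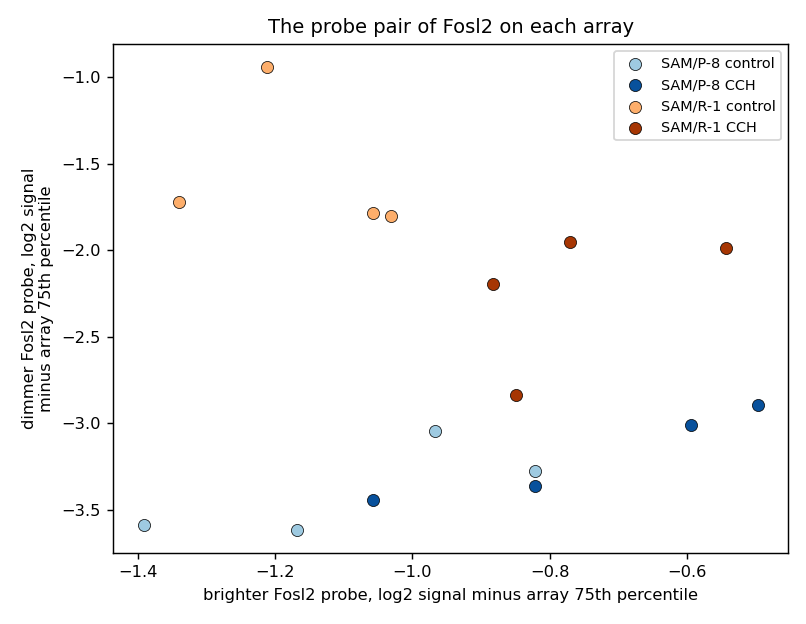
Level of the dimmer Fosl2 probe against that of the brighter one on each array, as log2 signal minus the 75th percentile of the array, coloured by group. The SAM/P-8 arrays all lie at or below -2.89 on the vertical axis and the SAM/R-1 arrays at or above -2.84, while on the horizontal axis the strains overlap.

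In the pathway lists, counts of strain differences are set beside the 12.8% of all genes called on the control diet and the 12.6% on the CCH diet. Of 22 upstream kinases and SRF factors, 1 passed on each diet, Rps6ka1, lower in SAM/P-8 by -0.26 ± 0.05 (adjusted p = 0.0029) on the control diet and -0.17 ± 0.05 (0.0448) on the CCH diet. Of 21 bZIP relatives, 0 passed on the control diet and 4 passed on the CCH diet, all higher in SAM/P-8. These were Batf2 by 0.91 ± 0.24 (0.0188), Atf6 by 0.41 ± 0.09 (0.00510), Cebpd by 0.35 ± 0.09 (0.0223) and Crem by 0.24 ± 0.07 (0.0368, limma). Atf6 is a sensor of stress in the endoplasmic reticulum and Crem a relative of CREB.

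Of the 17 reported targets, 3 passed on the control diet and 2 on the CCH diet, shares near those of all genes. Plaur, the urokinase receptor gene, was lower in SAM/P-8 at -0.73 ± 0.10, and the intermediate filament genes Vim and Gfap were higher at 0.58 ± 0.11 and 0.34 ± 0.09. On the CCH diet these were Gfap at 0.49 ± 0.09 and Scg2 at 0.41 ± 0.10 (limma). Gfap is also among the 5 astrocyte markers used here. Markers of vessels moved with the strain too: 8 of 9 endothelial and pericyte markers were above 0 on each diet. On the control diet 8 of 9 passed the test and on the CCH diet 3 of 9, all higher in SAM/P-8. Their score ran from 0.02 to 0.47 in SAM/P-8 control, 0.10 to 0.41 in SAM/P-8 CCH, -0.50 to -0.22 in SAM/R-1 control and -0.19 to 0.04 in SAM/R-1 CCH, without overlap between the strains on the same diet. Meningeal and fibroblast markers were above 0 for 7 of 8 genes on each diet, with medians of 0.60 and 0.68 and with 1 and 2 genes past the test. Their score ran from -0.25 to 0.76 in SAM/P-8 control, 0.09 to 0.70 in SAM/P-8 CCH, -0.58 to 0.13 in SAM/R-1 control and -0.34 to -0.10 in SAM/R-1 CCH. Microglial markers had 1 and 3 of 8 past the test, all higher in SAM/P-8. The 4 blood genes had a median of 1.24 on the control diet and 0.50 on the CCH diet. On the control diet 4 of 4 were higher at an unadjusted p under 0.05, where 26.4% of all genes were under it in either direction, and 0 passed the test (limma). Their score was 1.78 and 2.54 on SAM/P-8 control replicates 1 and 2. On replicates 3 and 4 it was -0.17 and 0.07, within the range of SAM/R-1 control, -0.59 to 0.29. The part of these shifts in the strain differences was not tested. Of the 9 cofactor genes and the 31 rapid genes, 0 passed on either diet, with 1 and 4 higher at an unadjusted p under 0.05 on the control diet.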

How the data were processed

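Spot intensities and flags were read from the deposited scanner files of 16 arrays. The processed signal is an intensity that, per the file headers, Agilent Feature Extraction 9.5.3.1 made by subtracting background and removing trends within the array. The deposited files also hold flags, a kind other than a measured value, for spots well above background, non-uniform (187, left out) or saturated (2). The authors' deposited table is on a log2 scale and centred by probe. The same centring of the scanner signals gave correlations of at least 0.9997 with its columns, with column medians between -0.03 and 0.01, and it served as an alternative.

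Groups came from the labels. Log2 processed signals minus the 75th percentile of the array were averaged per probe. A probe entered the tests where each array of some group had it well above background, which left 29009 of 41174 non-control probes. The files carry no gene symbols, and 24844 probes were named through their RefSeq accession and 16330 were not. A gene is represented by its brightest probe on average, and every probe of a member is given. A linear model with 1 mean for each group (12 residual degrees of freedom) was fitted to all arrays by limma 3.58.1 under R 4.3.3, with Benjamini-Hochberg adjustment over the probes kept and a threshold of 0.05. A list score averages the levels of its genes, each centred on its own mean. The fit was tested on simulated data. Promoter sequences are those of RefSeq on GRCm38.p6.

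The family and all gene lists were chosen with earlier results of these data known. Named genes are all members, up to 4 genes past the threshold with the largest difference per list and comparison or else the 2 with the smallest p, and the 5 genes most like Fos; Ier5, Ptgs2, Klf2, Zfp36, Nfkbiz and Homer1 were named after their values were seen. Alternatives were normexp background with an offset of 50, quantile and median scaling, no filter or a filter on all 16 arrays, the authors' table, a replicate block, only the arrays compared, the mean of the probes of a gene, another error model, and each array left out in turn.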

Additional observations from a re-analysis of the deposited data

Results flagged for a closer look

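In groups of 4 arrays, the highest or lowest array was compared with the gap to its nearest neighbour as a share of the group's range. Of 40 groups examined (10 probes in 4 groups), 2 had an array far from the rest. The dimmer Fosl2 probe read -0.94 on SAM/R-1 control replicate 2, with the next array at -1.72, a gap of 0.905 of the range. That array lies on the side away from SAM/P-8, and without each array in turn the strain gap of this probe on the control diet stayed between -1.93 and -1.61. Jun read 2.07 on SAM/R-1 CCH replicate 3, with the next array at 1.87, a gap of 0.847 of the range. A count of 2 in 40 is the share that chance alone gives in such a test, about 1 in 20.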

How the results depend on the processing

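The number of members called in the averaged CCH comparison was 3. It was 0 with the normexp background, 1 with quantile normalization, 0 with median scaling, 1 with the mean of all probes of a gene, and 0 to 4 with 1 array left out. It stayed at 3 with no filter, the filter on all 16 arrays, the authors' table and the other error model. For the strain difference on the control diet it was 1, and it was 0 with normexp, quantile normalization, median scaling, no filter and only the arrays compared, 2 with the mean of all probes, and 0 to 1 with 1 array left out. The other comparisons gave 0 under each setting.

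The labels number the replicates alike in all groups, but the numbers did not pair the arrays: over 24 pairs of arrays with the same number in different groups, deviations from the group means correlated between -0.25 and 0.30, with a mean of 0.01, and 6 pairs were above 0.1. With the replicate block, 1 member, Junb, was called in the averaged CCH comparison (adjusted p = 0.0394, limma), with Fos at 0.0732 and Fosl2 at 0.0606, and 0 in the strain difference on the control diet. The number of members called for CCH stayed at 0 in SAM/P-8 and in SAM/R-1.

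Small differences changed sign. With normexp these were the strain differences on the CCH diet of Fosl2 (-0.036) and the dimmer Junb probe (0.011), the CCH effect of Jund in SAM/R-1 (-0.090) and averaged (-0.024), that of Jun averaged (-0.0093) and the Fosb interaction (-0.045). With quantile normalization it was the CCH effect of Jun in SAM/P-8 (0.033), with the authors' table that of Jund in SAM/R-1 (-0.00044). With median scaling these were the Fosl2 strain difference on CCH (-0.025) and the interactions of Fosb (-0.015) and Junb (-0.043). With both Fosl2 probes averaged, Fosl2 was -0.87 between the strains on the control diet (adjusted p = 0.00153, limma), -0.46 on CCH, -0.14 for CCH in SAM/R-1 and 0.41 for the interaction. The cause of these turns was not tested, except that the last 4 carry the dimmer probe by construction.

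With 1 array left out, signs turned within these ranges: strain difference on CCH, Atf3 -0.076 to 0.52 and Fosl2 -0.063 to 0.12; on the control diet, Fos -0.086 to 0.16 and Fosl2 -0.015 to 0.17; CCH in SAM/P-8, Jun -0.093 to 0.079; in SAM/R-1, Jund -0.061 to 0.058; averaged, Jun -0.014 to 0.072 and Jund -0.0011 to 0.059. For the interaction they were Fosb -0.18 to 0.18, Fosl2 -0.16 to 0.050, Jun -0.16 to 0.014, Junb -0.091 to 0.072 and the dimmer Junb probe -0.024 to 0.17.

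Over all probes, 1207 were called in the averaged CCH comparison, 111 with normexp, 505 with median scaling, 3257 with no filter and 303 to 2118 with 1 array left out. With no filter 25.0% of calls were higher, against 50.5%. Signal near background limits Fosl1, which was left out of the limma tests and whose correlation with Fos rests on arrays mostly below background.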
